A study of Mus musculus with 16 samples.

Results

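Rab GTPases are small membrane-bound switches of vesicle traffic, and their mRNAs were followed here through muscle differentiation and after loss of the ER-phagy receptor Fam134b. The members were all rows of the expression table whose gene symbol is Rab, a number and at most a letter and a further digit. They were 59 of 31053 genes. By known site of action, 15 were placed in a class for the ER and Golgi, 28 in a class for endosomes and lysosomes, 12 in an exocytic class and 4 in a remainder. mRNA was sequenced in 16 samples of C2C12, a mouse myoblast line that fuses into myotubes, with 4 samples labelled as biological replicates in each of 4 groups. The groups were myoblasts and myotubes of the WT and of the Fam134b KO, all grown in DMEM with 10% FBS, and the myotubes formed spontaneously once the cells were confluent. The KO was 1 line, made with lentiviral CRISPR-Cas9 and selected with blasticidin and neomycin. A vector control is not described in the sources used here, so effects of the KO and of the line's own history cannot be told apart. The labels give the genotype in the titles only.

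A Rab protein cycles between a GDP-bound form in the cytosol and a GTP-bound form on a membrane. Guanine nucleotide exchange factors (GEFs, among them the DENN domain proteins and the TRAPP complexes) load GTP, TBC domain proteins (GAPs) speed its hydrolysis, and the active form recruits effectors such as tethers, motor adaptors and sorting proteins. A lipid tail is attached by Rab geranylgeranyl transferase with the escort proteins, and GDP dissociation inhibitors carry the inactive form through the cytosol. Rab1 and Rab2 act between the ER and the Golgi, Rab6 at the Golgi, Rab18 at the ER and lipid droplets, Rab5 at early endosomes, Rab7 at late endosomes and autophagosomes, Rab11 at recycling endosomes, and Rab3, Rab8, Rab10 and Rab27 on the way to the plasma membrane. Rab8, Rab10 and their GAPs Tbc1d1 and Tbc1d4 are among the proteins known from insulin- and contraction-driven traffic of the glucose transporter GLUT4.

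The bases upstream of the annotated start are shown for 6 Rab genes with a change described below: Rab3b, Rab5b, Rab31, Rab32, Rab39b and Rab40b. Each run is the 250 bases before the start in the RefSeq promoter table (GRCm38.p6), 5′ to 3′ on the strand of the gene, and the capitals mark each E-box, CANNTG, the letters recognised by myogenic bHLH factors such as MyoD. They lie at chr4:108878820-108879069, plus strand, for Rab3b, chr10:128696269-128696518, minus strand, for Rab5b, chr17:65772753-65773002, minus strand, for Rab31, chr10:10558208-10558457, minus strand, for Rab32, chrX:75578232-75578481, minus strand, for Rab39b, and chr11:121388252-121388501, minus strand, for Rab40b.
Rab3b: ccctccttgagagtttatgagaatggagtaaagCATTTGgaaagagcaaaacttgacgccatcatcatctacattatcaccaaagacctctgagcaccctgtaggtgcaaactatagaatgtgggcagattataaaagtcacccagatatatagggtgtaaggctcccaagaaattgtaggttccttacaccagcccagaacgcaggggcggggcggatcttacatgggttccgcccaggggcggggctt
Rab5b: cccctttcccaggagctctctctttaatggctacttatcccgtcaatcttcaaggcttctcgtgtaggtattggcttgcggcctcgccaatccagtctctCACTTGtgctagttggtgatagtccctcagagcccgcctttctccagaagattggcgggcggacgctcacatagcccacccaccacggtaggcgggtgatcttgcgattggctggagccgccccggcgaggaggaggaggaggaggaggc
Rab31: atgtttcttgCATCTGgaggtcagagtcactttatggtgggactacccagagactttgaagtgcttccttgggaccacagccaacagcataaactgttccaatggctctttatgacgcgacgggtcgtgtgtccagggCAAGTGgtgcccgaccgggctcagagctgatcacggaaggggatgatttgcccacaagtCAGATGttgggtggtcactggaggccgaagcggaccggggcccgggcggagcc
Rab32: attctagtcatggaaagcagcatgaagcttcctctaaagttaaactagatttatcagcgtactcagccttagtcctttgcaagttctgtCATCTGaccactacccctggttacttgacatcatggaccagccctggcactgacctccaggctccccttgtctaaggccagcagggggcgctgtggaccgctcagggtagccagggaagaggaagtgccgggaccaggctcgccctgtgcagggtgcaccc
Rab39b: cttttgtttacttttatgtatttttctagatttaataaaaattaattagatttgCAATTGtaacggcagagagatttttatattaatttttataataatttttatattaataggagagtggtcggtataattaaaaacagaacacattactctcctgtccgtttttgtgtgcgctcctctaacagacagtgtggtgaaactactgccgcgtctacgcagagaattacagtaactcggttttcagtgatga
Rab40b: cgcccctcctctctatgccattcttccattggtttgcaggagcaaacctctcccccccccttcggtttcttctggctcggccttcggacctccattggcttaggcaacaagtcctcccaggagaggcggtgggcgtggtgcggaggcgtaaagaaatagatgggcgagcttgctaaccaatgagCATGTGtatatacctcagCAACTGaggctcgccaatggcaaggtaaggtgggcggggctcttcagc

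These windows held 1 E-box each for Rab3b, Rab5b, Rab32 and Rab39b, 2 for Rab40b and 3 for Rab31. The table had 60 windows for 48 of the 59 Rab genes, and none for Rab18 or Rab7b. CANNTG, which reads the same on both strands, was present in 63.3% of the Rab windows and in 66.2% of all 32851 windows of the same length. CAGCTG, an E-box and so a subset of CANNTG, was present in 15.0% of Rab windows and 13.0% of all windows, and CACGTG, another such subset, in 8.33% and 6.02%. Over the 41 windows of tested Rab genes, the shares were 56.1% for CANNTG and 9.76% for CAGCTG, both below those of all windows. The MEF2-like motif, CTA and TAG with any 4 bases between them, was present in 1.67% and 3.20%. The Rab windows were GC-rich, with a median GC content of 60.2% and 15 CpG dinucleotides against 52.4% and 6 over all windows, and among the 6 shown the Rab39b window was the lowest at 31.6%. The letters describe these windows and are no evidence of binding.

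The targeted gene was low in the KO samples: Fam134b stood at 149.7 to 287 normalized counts in the 8 WT samples and at 23.4 to 56.9 in the 8 KO samples. A normalized count is the gene's read count divided by a factor of the sample. Samples held 2686680 to 3287461 reads counted on genes, apart from Fam134b KO myotubes replicates 2 and 4, which held 1790524 and 1484750. Markers of myotubes moved with the genotype: the 9 measured markers summed to 1508 to 2239 in myoblasts of the WT and 16.7 to 22.4 in those of the KO, and in myotubes to 22590.2 to 34763.5 (WT) and 10548 to 14372 (KO). Of these 9, 8 were lower in Fam134b KO than WT myoblasts and 5 were lower in Fam134b KO than WT myotubes. The 7 myoblast and proliferation markers summed to 1213 to 2214 in the other groups and to 549.5 to 781 in Fam134b KO myotubes. In KO myotubes 3 of them were lower than in WT myotubes. Among them Myod1 stood at 236 to 375 in WT and 5.81 to 15.7 in KO myoblasts, where 1 of 6 tested was called lower than in WT and 0 higher. Of 3 tested genes of the fibroblast list, Dcn and Tcf4 were higher in KO than WT myotubes, with the list at 1118 to 1571 against 691 to 1033. Tcf4 alone held 908 to 1459 against 668 to 974. It is an E protein gene and not Tcf7l2, the fibroblast marker of that alias, so the sum does not measure fibroblasts. The adipocyte list rested on Lpl and Cebpa, of which 1 was higher in KO at each stage, the osteoblast list summed to 26.3 to 150.1 and the endothelial and blood cell list to at most 12.1, and Adipoq, Plin1, Alpl, Ibsp, Ptprc, Cdh5 and Adgre1 had no read. The part of these differences in the Rab values was not tested, and in bulk RNA fewer cells of a type and less RNA per cell cannot be told apart.

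Of the 59 Rab genes, 43 reached 10 normalized counts or more in 4 samples or more and were tested, namely 12 of the 15 ER/Golgi, 21 of the 28 endosome/lysosome, 8 of the 12 exocytic and 2 of the 4 remaining members. A gene was called changed at an adjusted p under 0.05 in a limma fit across all 10767 genes that passed this filter. Over the 5 comparisons 20 Rab genes were called at least once and 23 in none. Since a member that is high in 1 group only can pass the filter through that group, these 43 are not all members. Rab40b reached 10 normalized counts in WT myotubes only and Rab3b in WT myoblasts only. Rab30 would not have passed without KO myotubes. The map of fold changes by class sets them side by side.

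**Figure D1:**
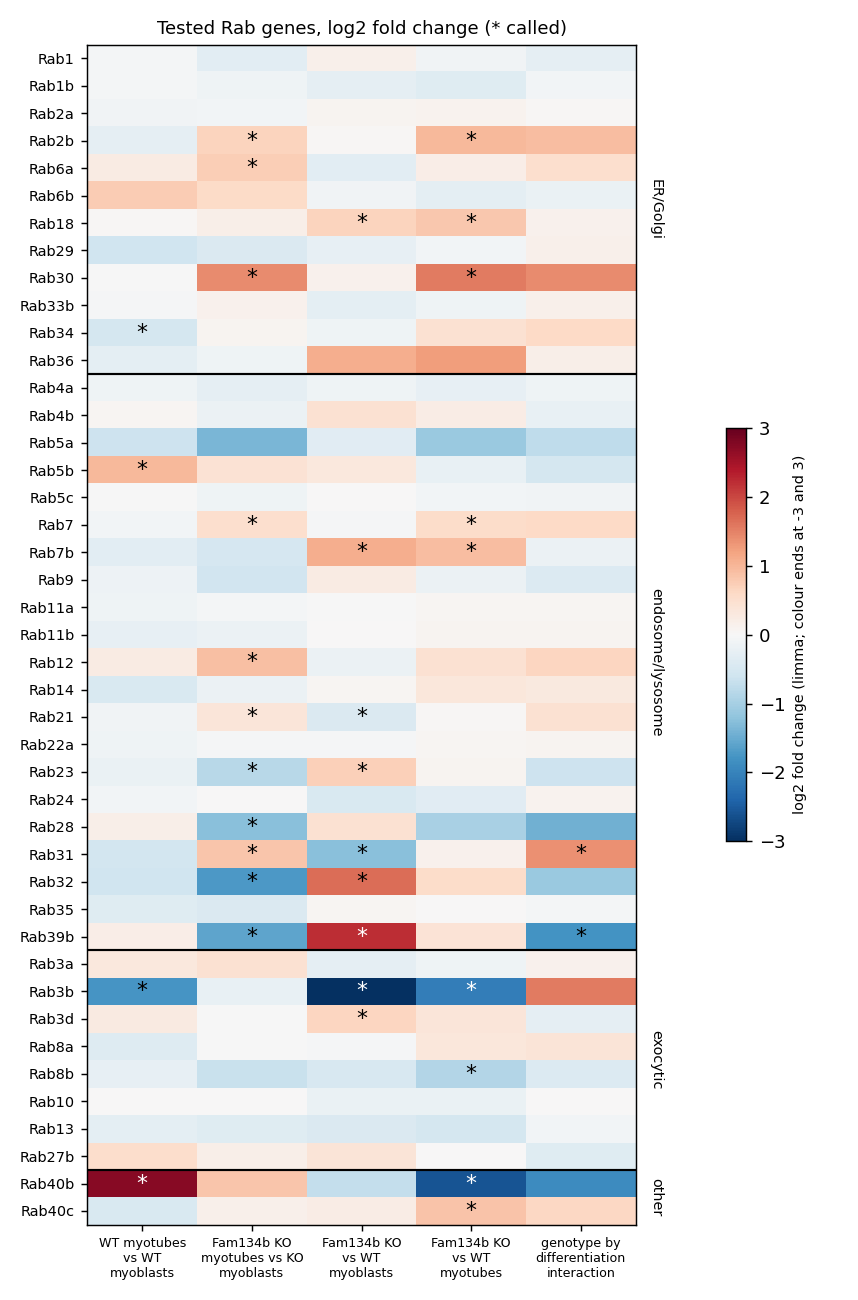
Log2 fold changes (colour) of the 43 tested Rab genes, in rows by class, for the 5 comparisons in columns; asterisks mark genes called at an adjusted p under 0.05. The interaction column is the log2 fold change on differentiation in Fam134b KO minus that in WT. Most rows are pale, and the strongest colours are those of Rab3b, Rab40b, Rab39b and Rab32.

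During WT differentiation, 4 Rab genes changed: Rab40b and Rab5b rose, and Rab3b and Rab34 fell. That is 9.30% of the 43 tested Rabs, beside 23.0% of all genes tested, the lower calls being 4.65% of Rabs beside 9.16% and the higher calls 4.65% beside 13.8%. The median log2 fold change of the Rabs was −0.12, against −0.01 over all genes, and the WT groups did not overlap for 6 Rabs, 14.0% of them, beside 28.0% of all genes. By class the calls were 1 of 12 ER/Golgi (Rab34), 1 of 21 endosome/lysosome (Rab5b), 1 of 8 exocytic (Rab3b) and 1 of the 2 others (Rab40b). Of the 4, Rab40b and Rab3b passed the filter only through the WT group in which each was high. More were called in other fits, 7 from the 8 WT samples alone and 12 with sample weights, and the 4 were among them in both. Calls over all 10767 genes rose too, from 1488 higher and 986 lower to 1872 and 1462 and to 2463 and 2220.

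During differentiation of Fam134b KO cells, 11 Rab genes changed. Rab30, Rab12, Rab31, Rab6a, Rab2b, Rab7 and Rab21 rose, and Rab32, Rab39b, Rab28 and Rab23 fell. The 25.6% called stood beside 33.4% of all genes tested, and the higher calls were 16.3% of Rabs beside 17.3% and the lower calls 9.30% beside 16.1%. The median log2 fold change was −0.07 for the Rabs and −0.02 for all genes, and 10 Rabs did not overlap between the groups, 23.3% beside 27.4% of all genes. The 11 comprised 8 of the 21 endosome/lysosome and 3 of the 12 ER/Golgi members and 0 of the 8 exocytic ones, where 1 had an unadjusted p under 0.05 and limma voom, a fit on the recovered reads, called 0. No Rab was called in both WT and KO differentiation. With 4 and 11 calls among 43 Rabs, an overlap of 0 does not show that the genotypes differ, and the interaction was called for 2. The share of all genes called in both was not computed. The split of 7 higher and 4 lower became 6 and 7 under scaling to total reads and 5 and 7 under quantile normalization. That of all genes went from 1860 higher and 1731 lower to 1674 and 1981 and to 1706 and 1908.

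Between genotypes, 9 Rab genes differed in myoblasts and 9 in myotubes. In Fam134b KO myoblasts Rab39b, Rab32, Rab7b, Rab23, Rab18 and Rab3d were higher and Rab3b, Rab31 and Rab21 lower. These 9 are 20.9% of the Rabs beside 15.8% of all genes, with 14.0% beside 7.26% in the higher and 6.98% beside 8.50% in the lower direction. The samples of the groups did not overlap for 15 Rabs, 34.9% beside 26.8%. In Fam134b KO myotubes Rab30, Rab2b, Rab7b, Rab40c, Rab18 and Rab7 were higher and Rab40b, Rab3b and Rab8b lower. Here the 20.9% of Rabs stood beside 23.4% of all genes, the higher calls being 14.0% beside 9.74% and the lower 6.98% beside 13.7%, and 8 Rabs did not overlap, 18.6% beside 19.4%. Median log2 fold changes were −0.01 in myoblasts and 0.06 in myotubes, against −0.01 and −0.07 over all genes. Rab18, Rab7b and Rab3b were called at both stages and in the same direction. The share of all genes called at both stages was not computed. In the myotube comparison the split of 6 higher and 3 lower became 9 and 1 under quantile normalization. That of all genes went from 1049 higher and 1472 lower to 1272 and 1335.

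**Figure D2:**
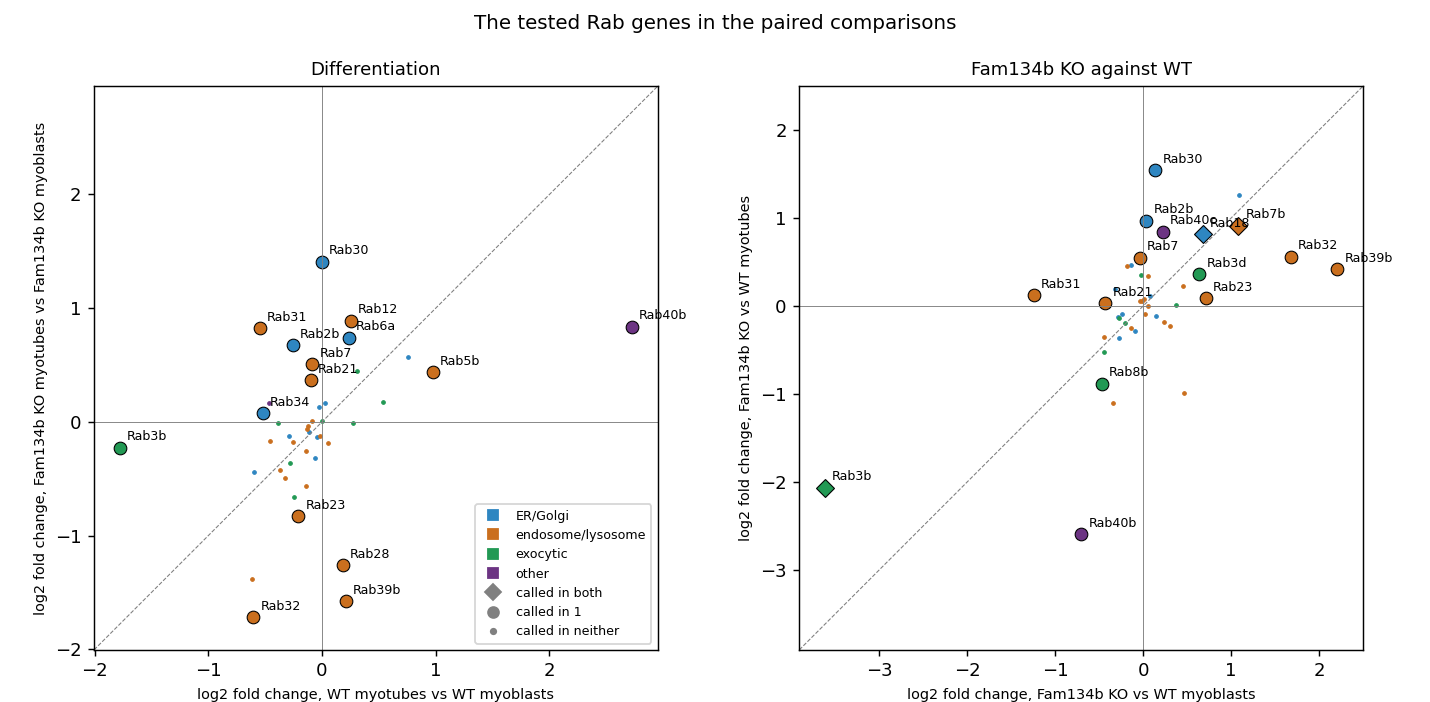
Each point is 1 of the 43 tested Rab genes, coloured by class, with log2 fold changes of WT differentiation (x) and Fam134b KO differentiation (y) on the left, and of Fam134b KO against WT in myoblasts (x) and in myotubes (y) on the right. Diamonds were called in both, large circles in 1 and dots in neither comparison, and the dashed line marks equal change. No diamond lies on the left, and Rab18, Rab7b and Rab3b are the diamonds on the right.

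The change on differentiation itself differed between the genotypes for 2 Rabs, Rab31 and Rab39b (4.65% beside 3.45% of all genes), with opposite signs: 1 Rab of 43 (2.33%) was called in each direction, beside 1.97% of all genes for a higher and 1.48% for a lower change. Rab31, a relative of Rab22a that acts between the trans-Golgi network and endosomes, had normalized counts of 620.1, 469, 516 and 641 in WT myoblasts and 379, 344, 339 and 477 in WT myotubes. In the KO it stood at 199, 292, 191 and 271 in Fam134b KO myoblasts and 513, 359, 577 and 279.8 in Fam134b KO myotubes. All Fam134b KO myoblast samples lay below all WT myoblast samples, and the myotubes of the genotypes overlapped. Rab31 was lower in Fam134b KO myoblasts (log2 fold change −1.25 ± 0.21, adjusted p = 0.000175, where ± is the SE) and not called between myotubes (log2 fold change 0.12 ± 0.21, adjusted p = 0.717). It rose in KO differentiation (log2 fold change 0.82 ± 0.21, adjusted p = 0.00483), where the samples overlapped by KO myotube replicate 4, and was not called in WT (log2 fold change −0.55 ± 0.21, adjusted p = 0.0655). The difference between these changes was 1.37 ± 0.30 (log2, adjusted p = 0.0110), a call kept with each sample left out in turn and under all other alternatives but a threshold of 0.01.

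Rab39b, an endosomal and Golgi Rab that is mutated in a human X-linked intellectual disability, had the larger difference. Its normalized counts were 20.3, 13.5, 12.01 and 16.9 in WT myoblasts and 18.99, 24.3, 20.4 and 10.9 in WT myotubes. In the KO they were 73.5, 78.9, 72.9 and 73.4 in Fam134b KO myoblasts and 12.6, 42.3, 17.1 and 37.97 in Fam134b KO myotubes. The Fam134b KO myoblasts stood apart from every other sample, at 4.76 times the WT myoblast mean, and the remaining groups overlapped each other. Rab39b was higher in Fam134b KO than WT myoblasts (log2 fold change 2.21 ± 0.34, adjusted p = 7.00e-05) and fell in KO differentiation (log2 fold change −1.58 ± 0.34, adjusted p = 0.00138). It was not called in WT differentiation (log2 fold change 0.21 ± 0.34, adjusted p = 0.710) or between myotubes (log2 fold change 0.42 ± 0.34, adjusted p = 0.410). The interaction was −1.79 ± 0.49 (adjusted p = 0.0457), and this call was lost without WT myoblasts replicate 1, 2, 3 or 4, WT myotubes replicate 1, 2 or 3, Fam134b KO myoblasts replicate 1, 2, 3 or 4 or Fam134b KO myotubes replicate 1 or 3 (adjusted p = 0.0526 to 0.0991), with the replicate block at 0.0569, without a filter and with quantile normalization. An antisense gene, Gm15063, overlaps Rab39b, and the use of strand in counting is not given in the sources used here.

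The ER and Golgi class was led by Rab18 and by a pair that rose in KO myotubes, Rab2b and Rab30. Rab18, which acts at ER contacts with lipid droplets, had normalized counts of 192, 218, 195 and 208 in WT myoblasts and 200.3, 197, 210.0 and 219.9 in WT myotubes. The KO values were 318, 351, 304 and 329 in Fam134b KO myoblasts and 379.5, 336, 434 and 319.7 in Fam134b KO myotubes. All 8 KO samples were above all 8 WT samples. Rab18 was higher in KO myoblasts (log2 fold change 0.68 ± 0.14, adjusted p = 0.00135) and in KO myotubes (log2 fold change 0.82 ± 0.14, adjusted p = 0.000229) and was not called on differentiation in WT (0.03, adjusted p = 0.919) or KO (0.17, adjusted p = 0.379). Both calls were kept with each sample left out in turn and under the other alternatives, a threshold of 0.01 included.

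Rab2b, a less studied relative of Rab2a in transport between the ER and the Golgi, stood at 68.3, 73.3, 91.1 and 91.8 in WT myoblasts and 37.99, 83.7, 78.1 and 81.2 in WT myotubes. In the KO it stood at 75.2, 95.5, 69.4 and 92.6 in Fam134b KO myoblasts and 136, 99.2, 150.2 and 152 in Fam134b KO myotubes. KO myotubes were above all other samples. Rab2b was higher in KO than WT myotubes (log2 fold change 0.97 ± 0.24, adjusted p = 0.00510) and rose in KO differentiation (log2 fold change 0.68 ± 0.24, adjusted p = 0.0321). The latter call was lost without Fam134b KO myoblasts replicate 1 or 3 or Fam134b KO myotubes replicate 1, 3 or 4 (adjusted p = 0.0611 to 0.0898) and with quantile normalization. Within each sample, Rab2b reads were 11.5% ± 1.74 (SD, n = 4) of Rab2a reads in KO myotubes, and in every other group lay between 6.48% ± 1.82 and 7.03% ± 1.30. Tox4 overlaps Rab2b on the opposite strand.

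Rab30, a Golgi Rab, was low, at 5.004 to 11.6 normalized counts in WT myoblasts, 6.64 to 14.00 in KO myoblasts and 5.94 to 9.50 in WT myotubes. KO myotubes had 21.3, 30.6, 29.7 and 21.98, above every other sample. It was 3.16-fold higher in KO than WT myotubes (log2 fold change 1.55 ± 0.35, adjusted p = 0.00295) and rose 2.76-fold in KO differentiation (log2 fold change 1.41 ± 0.35, adjusted p = 0.00402), on 87 reads in the 4 KO myotube samples against 36 in the 4 WT myotube samples. Both calls were kept with each sample left out. The WT groups overlapped (adjusted p = 0.999). Without KO myotubes, where it was high, Rab30 would not have passed the filter.

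Rab6a, a Golgi Rab that binds dynein adaptors of the Bicaudal family, had 581, 746, 542 and 598 in WT myoblasts and 758, 748, 678 and 707 in WT myotubes. In the KO it had 436, 689.8, 430.3 and 454 in Fam134b KO myoblasts and 711, 661, 894 and 1097 in Fam134b KO myotubes. KO myoblast replicate 2 lay above the other 3 of its group and inside the range of KO myotubes, so the KO groups overlapped. The rise in KO differentiation was called (log2 fold change 0.74 ± 0.18, adjusted p = 0.00330) and kept with each sample left out, and the WT change was 0.24 (adjusted p = 0.367). Rab34, which is tied to Golgi and lysosome position and to primary cilia, stood at 1021, 1023, 1092 and 1105 in WT myoblasts and 561, 975, 655 and 824 in WT myotubes. The groups did not overlap, and Rab34 fell in WT differentiation (log2 fold change −0.52 ± 0.17, adjusted p = 0.0326). That call was lost without WT myoblasts replicate 1, 2, 3 or 4 or WT myotubes replicate 1 or 3 (adjusted p = 0.0525 to 0.129). In KO cells Rab34 stood at 850.2 to 1129.8 and 865 to 1243 (log2 fold change 0.08, adjusted p = 0.759).

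The best known members of this class were not called in any comparison. Rab1, which drives transport from the ER to the Golgi, had group means of 682 ± 72.1, 655 ± 82.9, 767 ± 191 and 610.5 ± 130.3 (SD, n = 4) in WT myoblasts, WT myotubes, KO myoblasts and KO myotubes. Rab2a, the counterpart on the way back, had 1162 ± 100.0, 1087 ± 241, 1230.2 ± 90.6 and 1166 ± 178 in the same order. Their log2 fold changes over the 4 pairwise comparisons ran from −0.32 to 0.15 and from −0.12 to 0.11. The SE of these values was 0.16 to 0.18, so a change of that size was not detectable.

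In the endosome and lysosome class, 6 of 21 tested members differed between the genotypes in myoblasts, 28.6% beside 15.8% of all genes. Rab39b, Rab32, Rab7b and Rab23 were higher in the KO, and Rab31 and Rab21 lower. In myotubes 2 of the 21 differed, 9.52% beside 23.4% of all genes. Rab32, which acts in the biogenesis of lysosome-related organelles and anchors protein kinase A at mitochondria, had 41.5, 43.4, 21.02 and 47.2 in WT myoblasts and 15.5, 22.5, 35.3 and 25.8 in WT myotubes. The KO samples had 131, 82.2, 123 and 152 in Fam134b KO myoblasts and 55.2, 20.4, 53.98 and 25.98 in Fam134b KO myotubes. KO myoblasts were above all other samples. Rab32 was higher in KO than WT myoblasts (log2 fold change 1.68 ± 0.34, adjusted p = 0.00120) and fell in KO differentiation (log2 fold change −1.72 ± 0.34, adjusted p = 0.000555), both kept with each sample left out. KO myotubes stood at 0.319 of the KO myoblast mean, and without the 2 shallowest KO myotube samples the change was −1.11 (log2). KO and WT myotubes overlapped (log2 fold change 0.56, adjusted p = 0.249).

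Rab7b, which acts from late endosomes to the trans-Golgi network, stood at 67.4, 55.9, 46.03 and 63.3 in WT myoblasts and 46.6, 43.2, 46.5 and 46.6 in WT myotubes. The KO samples were at 136, 105, 131 and 123 in Fam134b KO myoblasts and 69.7, 93.4, 80.1 and 109.9 in Fam134b KO myotubes. All 8 KO samples were above all 8 WT samples. It was higher in KO myoblasts (log2 fold change 1.08 ± 0.19, adjusted p = 0.000304) and KO myotubes (log2 fold change 0.91 ± 0.19, adjusted p = 0.00156), and both calls were kept with each sample left out and under the other alternatives. On differentiation the change was −0.33 (adjusted p = 0.234) in WT and −0.50 (adjusted p = 0.0521) in KO cells.

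Rab7, the late endosomal Rab needed for fusion of autophagosomes with lysosomes, had 2189, 2242, 2339 and 2301 in WT myoblasts and 1777, 2939, 1797 and 2230.1 in WT myotubes. KO cells had 1975, 2407, 2141 and 2323 in Fam134b KO myoblasts and 3042, 2686, 2948 and 4002 in Fam134b KO myotubes. KO myotubes were above KO myoblasts, while WT myotube replicate 2 lay inside the range of KO myotubes. Rab7 rose in KO differentiation (log2 fold change 0.51 ± 0.18, adjusted p = 0.0311) and was higher in KO than WT myotubes (log2 fold change 0.55 ± 0.18, adjusted p = 0.0275). The first call was lost without Fam134b KO myoblasts replicate 1, 3 or 4 or Fam134b KO myotubes replicate 4 (adjusted p = 0.0520 to 0.0940). The second was lost without WT myotubes replicate 1, 3 or 4 or Fam134b KO myotubes replicate 4 (adjusted p = 0.0520 to 0.0991), and each of them was also lost without a filter, with only the samples compared and without the 2 shallowest samples (adjusted p of up to 0.104 and 0.119). Rab7 shares 5.96% of its last 500 bases with the pseudogene Rab7-ps1. Rab7b reads were 5.66% ± 1.08 of Rab7 reads in KO myoblasts and 2.19% ± 0.540 to 2.81% ± 0.492 in the other groups.

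Rab12, which acts between recycling endosomes and lysosomes, stood at 389, 478, 451 and 497 in WT myoblasts and 471, 581, 523 and 586 in WT myotubes. Its KO values were 412, 354, 358 and 482 in Fam134b KO myoblasts and 715, 599.7, 679 and 1027 in Fam134b KO myotubes. KO myotubes were above every other sample. Its rise in KO differentiation (log2 fold change 0.89 ± 0.17, adjusted p = 0.000340) was kept with each sample left out, and KO and WT myotubes differed by 0.46 ± 0.17 (adjusted p = 0.0529). Rab21, an early endosomal Rab of integrin traffic, had 453, 437, 403 and 463 in WT myoblasts and 395, 393, 388 and 469 in WT myotubes. With Fam134b lost, it had 313, 330.4, 322 and 335 in Fam134b KO myoblasts and 407, 480.1, 453 and 348 in Fam134b KO myotubes. KO myoblasts lay below every other sample. It was lower in KO than WT myoblasts (log2 fold change −0.43 ± 0.14, adjusted p = 0.0359) and rose in KO differentiation (log2 fold change 0.37 ± 0.14, adjusted p = 0.0462). The myoblast call was lost without any 1 of the 8 myoblast samples (adjusted p = 0.0501 to 0.0988) and was also lost with total scaling, with quantile normalization, with the replicate block and with limma voom (adjusted p of up to 0.0930). The other call was lost without WT myoblasts replicate 1, 2, 3 or 4, WT myotubes replicate 3 or 4, Fam134b KO myoblasts replicate 1, 2, 3 or 4 or Fam134b KO myotubes replicate 1, 2 or 3 (adjusted p = 0.0506 to 0.121) and with an offset of 5, without a filter, with total scaling, with quantile normalization, with the replicate block, with only the samples compared, with limma voom and without the 2 shallowest samples (adjusted p of up to 0.109).

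Rab23, a regulator of Hedgehog signalling and cilia, had 55.4, 60.8, 51.04 and 49.02 in WT myoblasts and 49.2, 45.9, 39.96 and 51.5 in WT myotubes. Fam134b-deficient cells had 95.4, 89.7, 88.5 and 81.8 in Fam134b KO myoblasts and 40.7, 75.9, 40.5 and 47.96 in Fam134b KO myotubes. KO myoblasts were again above every other sample. Rab23 was higher in KO than WT myoblasts (log2 fold change 0.71 ± 0.21, adjusted p = 0.0250) and fell in KO differentiation (log2 fold change −0.83 ± 0.21, adjusted p = 0.00490). The myoblast call was lost without WT myoblasts replicate 1, 3 or 4 or Fam134b KO myoblasts replicate 1 or 3 (adjusted p = 0.0511 to 0.0736), and the fall was kept with each sample left out. Rab28, an early endosomal and ciliary Rab, ranged from 48.6 to 121 in the 8 WT samples and stood at 104, 80.5, 83.3 and 114 in Fam134b KO myoblasts and 56.2, 64.2, 74.7 and 7.99 in Fam134b KO myotubes. KO myotube replicate 4, on 4 reads, lay far below the other 3. Rab28 fell in KO differentiation (log2 fold change −1.26 ± 0.45, adjusted p = 0.0369), and the call was lost without Fam134b KO myoblasts replicate 1, 3 or 4 or Fam134b KO myotubes replicate 4 (adjusted p = 0.0527 to 0.110), and also without a filter, with only the samples compared and without the 2 shallowest samples (adjusted p of up to 0.167). Without KO myotube replicate 4 the change was −0.54 (log2).

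Rab5b, a Rab5 isoform of early endosomes, had 121, 104, 123 and 160.4 in WT myoblasts and 228, 167, 289 and 341 in WT myotubes. The WT groups did not overlap, and Rab5b rose 2.02-fold in WT differentiation (log2 fold change 0.97 ± 0.29, adjusted p = 0.0194). The call was lost without WT myoblasts replicate 2 or WT myotubes replicate 3 or 4 (adjusted p = 0.0567 to 0.0762). The KO samples had 178, 102, 179.6 and 180.2 in Fam134b KO myoblasts and 239, 409, 139 and 148 in Fam134b KO myotubes, which overlapped (0.44, adjusted p = 0.254). The interaction was −0.53 ± 0.41 (log2, adjusted p = 0.535), so a difference between genotypes was not shown. Rab5a, the isoform best known from endosome fusion, ranged from 0 to 25.4 normalized counts over all samples, and Rab11a, the recycling Rab, from 291 to 520.5, and neither was called. For Rab5a the SE was 0.65 (log2), a spread at which smaller changes were not detectable.

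The exocytic class was led by Rab3b, a Rab of regulated secretion. Only its WT myoblasts reached 10 normalized counts, so it passed the filter through the group where it was high. Its normalized counts were 10.2, 11.6, 20.01 and 13.4 in WT myoblasts and 3.45, 8.10, 2.79 and 0.991 in WT myotubes. In KO myoblasts there was 1 read in the 4 samples, and in KO myotubes 0 reads. Every KO sample was below every WT sample, but KO myoblast replicate 3 (0.868) and WT myotube replicate 4 (0.991) held 1 read each. Only the scaling of the libraries sets those 2 samples apart. In myoblasts 58 WT reads faced that 1 KO read, a ratio of normalized counts of 64.2 with a 95% interval of 11.1 to 2581 for counting error only, and the call (log2 fold change −3.62 ± 0.57, adjusted p = 7.19e-05) was kept with each sample left out. In myotubes 17 WT reads faced 0. A level of 3 reads per library is taken as the limit that a count of 0 allows, which is 3.99 normalized counts in KO myotubes and above the WT mean of 3.83, so no fold is given. The call (log2 fold change −2.06 ± 0.57, adjusted p = 0.0114) was lost when only the 8 myotube samples were fitted, with sample weights and with quantile normalization. Rab3b fell in WT differentiation (log2 fold change −1.78 ± 0.57, adjusted p = 0.0278), a call lost without WT myoblasts replicate 2, 3 or 4 or WT myotubes replicate 1, 3 or 4 (adjusted p = 0.0514 to 0.101) and with an offset of 0.5. A gene on the opposite strand, 8030443G20Rik, overlaps Rab3b.

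Its relatives behaved otherwise. Rab3d, a Rab of secretory granules, had 71.05, 82.9, 85.1 and 77.5 in WT myoblasts and 77.7, 108, 102 and 97.1 in WT myotubes. KO cells had 130.4, 133, 98.9 and 136 in Fam134b KO myoblasts and 114, 125, 109 and 146 in Fam134b KO myotubes. At each stage the 4 KO samples were above the 4 WT samples. The difference was called in myoblasts (log2 fold change 0.64 ± 0.18, adjusted p = 0.0141) and not in myotubes (log2 fold change 0.36 ± 0.18, adjusted p = 0.146). The myoblast call was lost without WT myoblasts replicate 1 or Fam134b KO myoblasts replicate 4 (adjusted p = 0.0501 to 0.0513). Per sample, Rab3d reads were 142% ± 5.93 of Rab3a reads in WT myoblasts and 273% ± 58.2 in KO myoblasts. Rab3a, the synaptic vesicle Rab, was not called in any comparison (adjusted p = 0.147 to 0.877).

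Rab8b, a relative of Rab8a in traffic to the plasma membrane, had 20.7, 20.7, 15.8 and 20.8 in WT and 10.6, 7.30, 16.2 and 7.99 in KO myotubes. KO myotube replicate 3 lay within the WT range. The lower KO level was called (log2 fold change −0.88 ± 0.30, adjusted p = 0.0393) and was lost without WT myoblasts replicate 1, WT myotubes replicate 1, 2 or 4, Fam134b KO myoblasts replicate 1 or 3 or Fam134b KO myotubes replicate 1, 2 or 4 (adjusted p = 0.0502 to 0.0913). It was also lost without a filter, with quantile normalization, with the replicate block, with only the samples compared, with sample weights, with limma voom and without the 2 shallowest samples (adjusted p of up to 0.253). Rab8a and Rab10, which are among the Rabs known from GLUT4 traffic, were not called. Rab8a means were 373 ± 44.6, 294 ± 101, 365 ± 33.3 and 376 ± 123 in WT myoblasts, WT myotubes, KO myoblasts and KO myotubes. Rab10 means were 442 ± 11.995, 449.9 ± 88.9, 384 ± 22.3 and 399 ± 109. Rab13, of tight junction traffic, and Rab27b, of granule and exosome release, were not called either, with log2 fold changes in KO against WT of −0.44 and 0.38 in myoblasts and −0.52 and 0.01 in myotubes.

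Rab40b and Rab40c are SOCS-box Rabs that join a cullin ubiquitin ligase and were placed in no class. Rab40b had 1.85, 3.86, 5.004 and 0 in WT myoblasts and 29.4, 10.8, 21.4 and 18.8 in WT myotubes. It rose 7.50-fold in WT differentiation (log2 fold change 2.73 ± 0.64, adjusted p = 0.00424), with no overlap, and the call was kept with each sample left out. Its KO values were 0.875, 0.830, 0.868 and 0.834 in Fam134b KO myoblasts and 3.87, 0, 7.20 and 1.998 in Fam134b KO myotubes, on 4 and 13 reads in all. Rab40b was lower in KO than WT myotubes (log2 fold change −2.59 ± 0.64, adjusted p = 0.00558), a call kept with each sample left out and lost without both shallow KO myotube samples (adjusted p = 0.0619). The interaction was −1.89 ± 0.91 (adjusted p = 0.286), so the larger rise in WT was not shown to differ. Rab40c was higher in KO than WT myotubes (log2 fold change 0.85 ± 0.28, adjusted p = 0.0343), with values of 82.9, 170.0, 104 and 122 and 151, 187, 211 and 318 that overlapped, and lost its call without WT myotubes replicate 1, 3 or 4 or Fam134b KO myotubes replicate 3 or 4 (adjusted p = 0.0602 to 0.112), and without the 2 shallowest samples (adjusted p = 0.184).

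**Figure D3:**
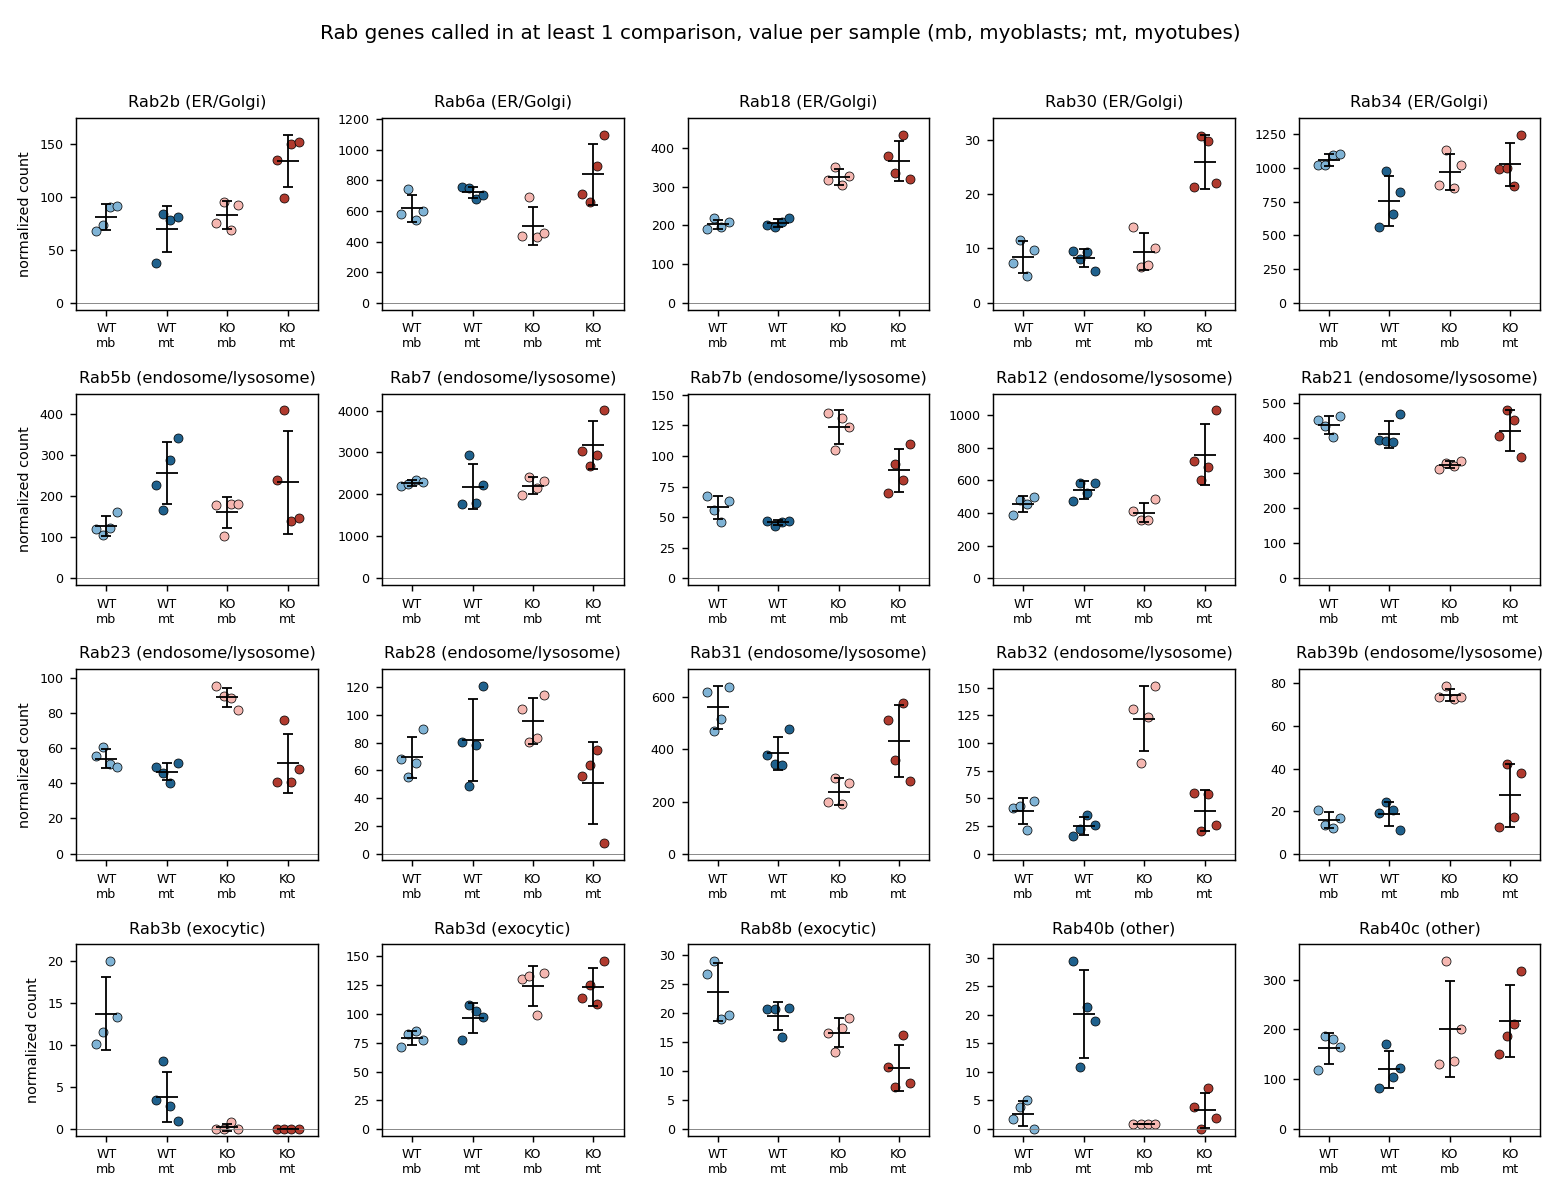
Normalized counts (y, linear, from 0) of the 20 Rab genes called in at least 1 comparison, with 1 point per sample and a bar for the mean and SD of 4 samples, for WT myoblasts (WT mb), WT myotubes (WT mt), Fam134b KO myoblasts (KO mb) and Fam134b KO myotubes (KO mt). KO myoblasts stand alone for Rab39b, Rab32 and Rab23, KO myotubes for Rab30, and all KO samples lie above all WT samples for Rab18 and Rab7b.

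Summed over the 59 members, Rab mRNA overlapped between all groups. The sums were 13977.5 ± 588, 13022 ± 1752, 13665 ± 809 and 14997 ± 1698 normalized counts (SD, n = 4) in WT myoblasts, WT myotubes, KO myoblasts and KO myotubes. In the same order the exocytic class summed to 1225 ± 72.1, 1157 ± 247, 1131 ± 67.7 and 1133 ± 206.

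Among the 16 untested members, Rab15, Rab17, Rab19, Rab39 and Rab9b had no read in any sample, which allows at most 2.49 to 5.99 normalized counts per sample at 3 reads. Rab25, Rab26, Rab27a, Rab33a, Rab37 and Rab3c had at most 3 reads in a sample. Rab20, of phagosomes, reached 5.81 normalized counts, Rab42 reached 8.10 and Rab44 reached 6.91. Rab38, the relative of Rab32 in pigment granules, was at 0 to 3.69 in WT myoblasts and 1.80 to 9.91 in WT myotubes, with 0 reads in the 8 KO samples. Rab43, of the Golgi, reached 17.98 in KO myotube replicate 4 but shares 74.0% of its last 500 bases with Gm45140, so its reads are uncertain. Of the tested members, Rab4b shares 63.5% with Gm21983, Rab11b 23.6%, Rab9 16.7% and Rab33b 13.2% with other genes, and these 4 were not called.

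The genes that run the Rab cycle were read from 4 lists of 171 genes, of which 145 were tested. In WT differentiation 14 were called (9.66% beside 23.0% of all genes), 13 higher and 1 lower, a split that became 13 and 6 under quantile normalization. That of all genes went from 1488 higher and 986 lower to 1418 and 1434. In KO differentiation 37 regulators were called (25.5% beside 33.4%), 22 higher and 15 lower. Between genotypes 19 were called in myoblasts (13.1% beside 15.8%), 11 higher and 8 lower, and 30 in myotubes (20.7% beside 23.4%), 20 higher and 10 lower in the KO. The interaction was called for 4 (2.76% beside 3.45%). Median log2 fold changes of the 145 lay between −0.07 and 0.02.

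**Figure D4:**
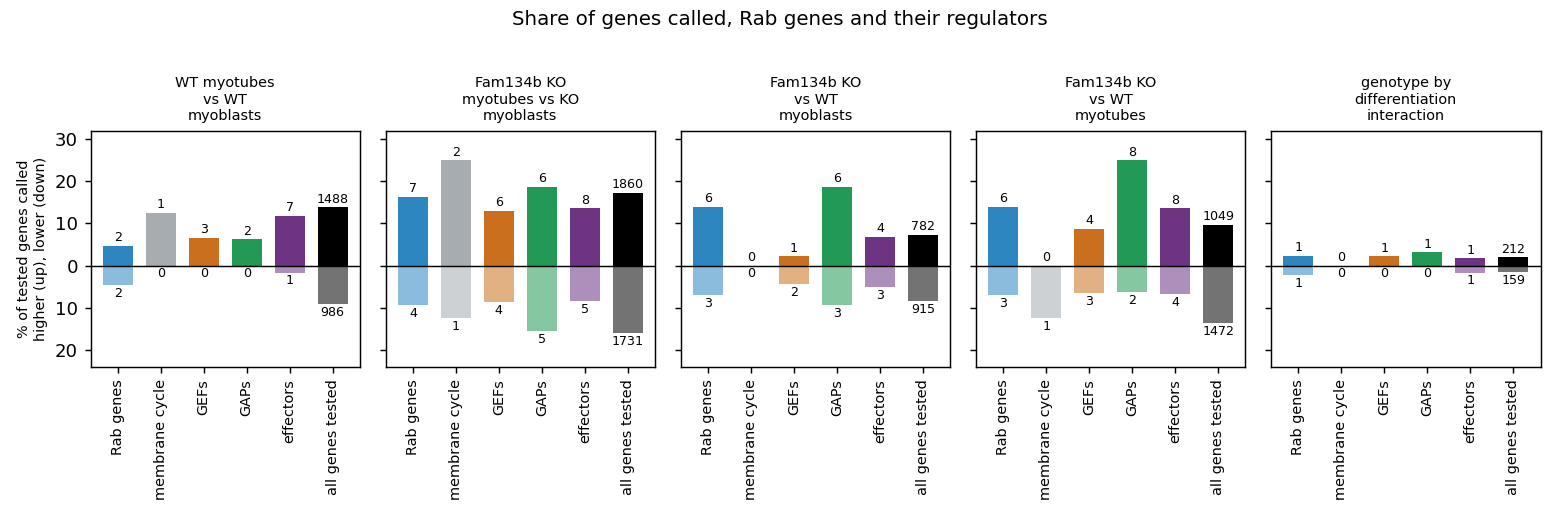
Percent of tested genes called higher (bars above 0) or lower (bars below 0) in each of the 5 comparisons, for the Rab genes, the 4 lists of their regulators and all genes tested; the numbers are counts of called genes. Rab genes stay under the share of all genes in WT differentiation, and the GAPs have the tallest upper bar in both genotype comparisons.

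Of the membrane cycle list, 8 of 8 were tested. The shares called were 12.5%, 37.5%, 0% and 12.5% in WT differentiation, KO differentiation, KO against WT myoblasts and KO against WT myotubes. Those of all genes were 23.0%, 33.4%, 15.8% and 23.4%. Rabac1, a prenylated Rab acceptor at the Golgi, rose in both WT (0.51 ± 0.14, adjusted p = 0.0119) and KO differentiation (0.56 ± 0.14, adjusted p = 0.00390). It was the 1 call of the list in WT, and in the KO there were 2 higher and 1 lower. Between genotypes the list had 0 calls in myoblasts, where 1 had an unadjusted p under 0.05 and limma voom called 0, and 1 in myotubes, Rabggta, the alpha subunit of Rab geranylgeranyl transferase (log2 fold change −1.33 ± 0.31, adjusted p = 0.00375), whose call was lost without the 2 shallowest samples (adjusted p = 0.0544). Each regulator that follows is among the largest called changes of at least 1 comparison, while Rabac1 and Rabggta were chosen after their values were seen. Losses of a regulator's call are given where leaving out samples or another setting ended it.

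Among the GEFs, 46 of 53 were tested, and 3, 10, 3 and 7 were called in WT differentiation, KO differentiation, KO against WT myoblasts and KO against WT myotubes. These shares of 6.52%, 21.7%, 6.52% and 15.2% lay below the 23.0%, 33.4%, 15.8% and 23.4% of all genes. Dennd3, a GEF of Rab12, was at 12.01 to 25.1 and 9.91 to 18.9 normalized counts in WT myoblasts and myotubes and at 0.834 to 6.07 and 0 to 2.70 in the KO. It was lower in the KO at both stages (log2 fold change −2.24 ± 0.52, adjusted p = 0.00414 in myoblasts and log2 fold change −2.997 ± 0.52, adjusted p = 0.000295 in myotubes). Dennd3 passed the filter only through WT samples, where it was high. Rin2, a GEF of the Rab5 family, averaged 72.4 ± 7.85 in WT and 194 ± 63.2 in KO myotubes (SD, n = 4) and was higher in the latter (log2 fold change 1.35 ± 0.26, adjusted p = 0.000868). Dennd1a, a GEF of Rab35, was also higher in KO myotubes (log2 fold change 1.21 ± 0.27, adjusted p = 0.00266) and rose in KO differentiation (log2 fold change 1.58 ± 0.27, adjusted p = 0.000131). Ankrd27, a GEF of Rab21 and a partner of Rab32 and Rab38, fell in KO differentiation (log2 fold change −1.04 ± 0.25, adjusted p = 0.00325), and Dennd6b rose in WT differentiation (log2 fold change 2.11 ± 0.55, adjusted p = 0.00861).

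Of the GAPs, 32 of 39 were tested, and 2, 11, 9 and 10 were called in the same order of comparisons. The share called was 6.25% beside 23.0% of all genes in WT differentiation and 34.4% beside 33.4% in KO differentiation. In KO against WT this was 28.1% in myoblasts beside 15.8% of all genes, 6 higher and 3 lower, and 31.3% in myotubes beside 23.4%, 8 higher and 2 lower. Tbc1d12, linked to recycling endosomes, was at 1.78 to 4.61 and 1.80 to 3.96 in WT myoblasts and myotubes and at 21.6 to 30.4 and 5.99 to 51.1 in the KO, and was higher at both stages (log2 fold change 2.90 ± 0.49, adjusted p = 0.000160 and log2 fold change 2.56 ± 0.49, adjusted p = 0.000628). Tbc1d12 passed the filter only through KO samples, where it was high. Grtp1, a TBC domain protein named for its response to growth hormone, rose in WT (log2 fold change 2.09 ± 0.31, adjusted p = 5.82e-05) and in KO differentiation (log2 fold change 2.52 ± 0.31, adjusted p = 2.67e-06). Its level in the KO was lower at both stages (log2 fold change −2.50 ± 0.31, adjusted p = 4.01e-06 and log2 fold change −2.07 ± 0.31, adjusted p = 6.85e-05). Sgsm1, a neuronal RUN and TBC protein, was lower in KO at both stages (log2 fold change −1.45 ± 0.41, adjusted p = 0.0168 and log2 fold change −2.01 ± 0.41, adjusted p = 0.00112), the myoblast call being lost without WT myoblasts replicate 3 or Fam134b KO myoblasts replicate 3 or 4 (adjusted p = 0.0522 to 0.0586). Its relative Sgsm2 rose in KO differentiation (log2 fold change 1.63 ± 0.23, adjusted p = 1.06e-05).

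The GAPs of GLUT4 traffic moved in opposite directions in myoblasts. Tbc1d1 averaged 134 ± 17.5, 232 ± 29.8, 76.7 ± 14.2 and 206 ± 48.7 in WT myoblasts, WT myotubes, KO myoblasts and KO myotubes (SD, n = 4). It rose in WT (log2 fold change 0.79 ± 0.19, adjusted p = 0.00503) and in KO differentiation (log2 fold change 1.40 ± 0.19, adjusted p = 8.60e-06) and was lower in KO than WT myoblasts (log2 fold change −0.80 ± 0.19, adjusted p = 0.00475). Tbc1d4 averaged 16.2 ± 3.89, 20.7 ± 6.68, 48.5 ± 12.5 and 21.7 ± 10.3. It was higher in KO than WT myoblasts (log2 fold change 1.52 ± 0.33, adjusted p = 0.00250) and fell in KO differentiation (log2 fold change −1.19 ± 0.33, adjusted p = 0.00885).

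Of the effectors, 59 of 71 were tested, and 8, 13, 7 and 12 were called in the same order. These shares of 13.6%, 22.0%, 11.9% and 20.3% lay below the 23.0%, 33.4%, 15.8% and 23.4% of all genes. Sytl2, a synaptotagmin-like effector of Rab27, was lower in KO myoblasts (log2 fold change −2.95 ± 0.37, adjusted p = 3.97e-06) and KO myotubes (log2 fold change −1.84 ± 0.37, adjusted p = 0.00105) and rose in KO differentiation (log2 fold change 2.08 ± 0.37, adjusted p = 0.000181). Unc13d, which primes Rab27 granules for release, stood at 0 to 3.002 normalized counts in WT myoblasts and 12.6 to 37.1 in WT myotubes, rose in WT differentiation (log2 fold change 3.66 ± 0.64, adjusted p = 0.000293) and was lower in KO than WT myotubes (log2 fold change −2.19 ± 0.64, adjusted p = 0.0160), a call lost without WT myotubes replicate 3 (adjusted p = 0.0522). Unc13d passed the filter through WT myotubes, where it was high. Rilp, the Rab7 effector that recruits dynein to lysosomes, was lower in the KO at both stages (log2 fold change −1.22 ± 0.36, adjusted p = 0.0230 and log2 fold change −1.56 ± 0.36, adjusted p = 0.00342), the myoblast call being lost without WT myoblasts replicate 1 or 4 or Fam134b KO myoblasts replicate 1 or 3 (adjusted p = 0.0522 to 0.107). Rab11fip5, an effector of Rab11, was higher in the KO at both stages (log2 fold change 0.79 ± 0.18, adjusted p = 0.00381 and log2 fold change 1.49 ± 0.18, adjusted p = 6.37e-06). Golga2, the Golgi matrix protein GM130 that binds Rab1, was higher in KO myotubes (log2 fold change 1.18 ± 0.22, adjusted p = 0.000652), and Appl2, an early endosomal effector of Rab5, rose in WT (log2 fold change 0.78 ± 0.22, adjusted p = 0.0133) and KO differentiation (log2 fold change 1.15 ± 0.22, adjusted p = 0.000382), the WT call being lost without WT myoblasts replicate 3 or WT myotubes replicate 1 (adjusted p = 0.0528 to 0.0619).

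The 4 regulators with a called interaction were Sgsm2 (1.40 ± 0.32, adjusted p = 0.0151), Rin2 (1.37 ± 0.37, adjusted p = 0.0462), the kinase Lrrk1 (0.95 ± 0.26, adjusted p = 0.0495) and the actin oxidase Mical1 (−0.91 ± 0.25, adjusted p = 0.0499). Sgsm2 kept its call with each sample left out. Those of Rin2, Lrrk1 and Mical1 were lost without any 1 of 14, 12 and 14 of the 16 samples, at adjusted p of up to 0.106, 0.113 and 0.118. The replicate block also ended those of Rin2 (adjusted p = 0.0671) and Lrrk1 (adjusted p = 0.0581). Besides the block, Rin2 lost its call without a filter, Lrrk1 with an offset of 0.5, without a filter, with total scaling, with quantile normalization, with limma voom and without the 2 shallowest samples (adjusted p of up to 0.113) and Mical1 without a filter, with sample weights, with limma voom and without the 2 shallowest samples (adjusted p of up to 0.0876).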

How the data were processed

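Total RNA of the 16 samples was made into single-end mRNA libraries by a commercial service. Per the labels and the study's methods, the authors trimmed the reads, aligned them with STAR 2.6.0a to mm10 and counted them per gene with HTSeq, and the tool behind the normalization is not given in the sources used here. The deposited values are log2 values of normalized counts plus an offset of 1, and 100% of those above 0 gave whole reads within 0.02, from which depth and floors were read. The test had been planned for linear normalized counts, so no further log step was taken. Floors and counting intervals cover counting error only.

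Samples were grouped by their titles. Genes reaching 10 normalized counts or more in 4 or more of the 16 samples (10767) were fitted with limma 3.58.1 in R 4.3.3 (lmFit and eBayes with a trend, 4 group means, no covariate) on the log2 values as deposited, with Benjamini-Hochberg adjustment over all of them and a two-sided threshold of 0.05. The 5 comparisons were differentiation in each genotype, genotype at each stage, and the interaction. The labels call the samples biological replicates without naming separate cultures, so p-values measure the spread between these samples. All groups share 1 spread per gene, although the spread was unequal. Root mean square deviations from the group mean (log2) were largest in KO myotubes, at 0.448 to 0.691, against 0.261 to 0.326 in WT myoblasts. From only the samples compared, WT differentiation had 1872 genes higher and 1462 lower, against 1488 and 986 in the shared fit. KO differentiation had 1495 and 1260, against 1860 and 1731. Numbers of calls in the 2 differentiation comparisons can therefore not be set against each other.

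The members, the classes, the lists of Rab regulators (membrane cycle, GEFs, GAPs and effectors) and of cell type markers (myoblast, myotube, fibroblast, adipocyte, osteoblast, endothelial or blood cell) and the tests were chosen with earlier results of these data known. Every called Rab is named, the up to 6 called Rabs with the largest change per comparison and direction and those called for the interaction are given in every sample, Rab1, Rab2a, Rab6a, Rab18, Rab5a, Rab7, Rab11a, Rab8a and Rab10 are described regardless, and of the regulators up to 6 called per comparison and direction could be named. Promoter windows came from RefSeq (GRCm38.p6), and overlap and shared 3′ ends (stretches of 31 bases within the last 500) from GENCODE M21. Alternatives were offsets of 0.5 and 5, no filter, a minimum of 50, scaling to total reads, median-ratio scaling, quantile normalization, a replicate block, only the samples compared, sample weights, limma voom on the recovered reads, a threshold of 0.01 and each sample left out. Leaving out the 2 shallowest samples was added after seeing the data.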

Additional observations from a re-analysis of the deposited data

Results flagged for a closer look

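In 9 of 80 groups of 4 samples looked at for the called Rab genes, 1 sample lay further from the other 3 than Dixon's 95% critical value for the gap over the range allows, which chance gives in about 5% of groups. In Fam134b KO myoblasts, replicate 2 was low for Rab5b (102 normalized counts against 178 to 180.2) and high for Rab6a (689.8 against 430.3 to 454) and Rab39b (78.9 against 72.9 to 73.5). Replicate 3 of the same group was low for Rab3d (98.9 against 130.4 to 136) and held the 1 read of Rab3b (0.868 against 0). With all other samples of the group at 0, the gap over the range is 1 for any count. This group is among the 9, but its flag was fixed by 1 read.

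In WT myotubes, replicate 4 was high for Rab21 (469 against 388 to 395), replicate 1 low for Rab2b (38.0 against 78.1 to 83.7), replicate 2 low for Rab7b (43.2 against 46.5 to 46.6) and replicate 3 low for Rab8b (15.8 against 20.7 to 20.8). The Rab7b and Rab39b gaps are small against the levels, the other 3 samples being close together.

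The change on differentiation differed between the genotypes for Rab31 (interaction 1.37 on the log2 scale, adjusted p = 0.0110) and for Rab39b (−1.79, adjusted p = 0.0457), both by the interaction term of the limma fit.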

How the results depend on the processing

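No Rab call changed direction under any alternative. Of the 35 calls in the 5 comparisons, 21 were kept with each sample left out in turn and 19 under every alternative in which the gene was tested, at a threshold of 0.05. Of these 19, 15 were also tested with a minimum of 50, and the other 4 (Rab30 in both its comparisons, Rab3b in myoblasts and Rab40b in WT differentiation) were not tested there. In all, 8 of the 35 calls, those of Rab30, Rab3b, Rab40b and Rab8b, were not tested with that minimum. The 4 Rab calls of WT differentiation became 2 with a minimum of 50, 7 with only the samples compared, 12 with sample weights, 7 without the 2 shallowest samples (chosen after seeing the data) and 1 at a threshold of 0.01. With 1 sample left out they ranged from 1 to 6, with 1 or 2 left without WT myoblasts replicate 2, 3 or 4 or WT myotubes replicate 1, 3 or 4. The 11 of KO differentiation became 7 at 0.01 and ranged from 7 to 12 with a sample left out, 7 being reached without Fam134b KO myoblasts replicate 1 or 3. The 9 in KO against WT myoblasts became 14 with sample weights (range with a sample left out 6 to 10), and the 9 in myotubes became 5 with a minimum of 50 and 5 at 0.01 (range 6 to 11). The 2 interaction calls became 1 without a filter, 1 with quantile normalization, 6 with sample weights and 0 at 0.01 (range 1 to 2, with 1 without any of 13 of the 16 samples), and limma gave 11 Rab interactions an unadjusted p under 0.05.

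Of the 104 regulator calls, 67 were kept with each sample left out in turn and 0 changed direction. The 14 calls of WT differentiation became 25 with only the samples compared, 41 with sample weights, 26 without the 2 shallowest samples and 5 at 0.01 (range 9 to 24, with 9 without WT myotubes replicate 1 or 4 and 24 without replicate 2). The 37 of KO differentiation became 21 at 0.01 (range 29 to 42). The 19 in myoblasts became 31 with only the samples compared, 43 with sample weights, 29 without the 2 shallowest samples and 12 at 0.01 (range 14 to 23), and the 30 in myotubes became 19 at 0.01 (range 23 to 38). The 4 interaction calls became 1 without a filter, 14 with sample weights, 2 with limma voom, 2 without the 2 shallowest samples and 0 at 0.01 (range 1 to 5, with 1 without any WT myoblast sample, WT myotubes replicate 1 or 3 or Fam134b KO myoblasts replicate 1, 3 or 4, and 2 without WT myotubes replicate 2 or 4 or Fam134b KO myotubes replicate 1 or 4). At 0.01, limma still gave 19 of these genes an unadjusted interaction p under 0.05. Over all genes, calls in KO against WT myoblasts also rose with only the samples compared, from 782 higher and 915 lower to 1250 and 1406.

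With the replicate number as a block, the Rab calls were 4, 10, 8, 10 and 1 in the order of the comparisons and the regulator calls 13, 37, 20, 31 and 2. The block ended the calls of Rab21 in both comparisons, of Rab8b and of the Rab39b interaction, and 31 of the 35 Rab calls were kept. Of the 104 regulator calls 100 were kept, and those ended were the interactions of Rin2 and Lrrk1, Vps39 in WT differentiation and Rabgap1l in KO against WT myotubes. The numbers are only a shared number: deviations from the group means correlated at 0.0330 on average between samples of the same number (24 pairs, −0.223 to 0.369) and at −0.0108 between samples of different numbers (72 pairs). The cause of these moves was not tested. The 2 shallowest samples, both Fam134b KO myotubes, set the depth limit of the KO myotube comparisons. No scaling moved the median of all genes by more than 0.1 (log2).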
